A study of Homo sapiens with 20 samples.

Results

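BCOR was depleted in cells that also received the glucocorticoid dexamethasone, and the RNA of those cells was compared with that of hormone-treated cells holding a control siRNA. The comparison rests on 8 of the 16 RNA libraries of the series, chosen by their labels, 4 called siBCOR dex and 4 called siNON dex. The series has 20 samples in all, and the other 4 are BCOR ChIP-seq libraries. All libraries came from HEK293-GR cells, human embryonic kidney cells with constitutive expression of the glucocorticoid receptor (GR), kept in steroid-depleted medium. In siBCOR dex they carried a pool of siRNAs against BCOR, at 20 nM for 72 h, and dexamethasone at 100 nM for 6 h. In siNON dex they carried a pool of non-targeting siRNAs under the same conditions, so both groups share the added receptor, the transfection and the hormone. The vehicle groups, siBCOR vehicle and siNON vehicle with 4 libraries each, received ethanol in place of dexamethasone and serve below as a second reading of the depletion. The labels' protocol calls the 4 replicates biological, while the series text speaks of 3, and all 4 were used.

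BCOR is a corepressor that binds the transcriptional repressor BCL6 and is a subunit of PRC1.1. This Polycomb complex marks chromatin at CpG-rich promoters by ubiquitinating histone H2A. GR is a ligand-activated transcription factor. When dexamethasone binds it, GR enters the nucleus, occupies DNA and raises or lowers nearby genes, with the help of coactivators and corepressors. The comparison asks which genes differ when BCOR is low while the hormone is present.

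Counts per library, over 1 transcript per gene, ran from 18580294 to 28054808 in the 8 libraries. Levels are given as CPM, a gene's count relative to the library's total count after scaling by the trimmed mean of M values. A gene is called higher or lower in siBCOR dex when its p from edgeR's quasi-likelihood F test, adjusted by Benjamini-Hochberg over the 16432 tested genes, is below 0.05. Log2 fold changes are siBCOR over siNON, with the standard error after the ± sign. Libraries of 1 group differed more than counting error alone would give, so none was a copy of another. Replicate 4 of siNON dex lay apart from replicates 1 to 3. Its median correlation with them over 12061 genes was 0.9814, against 0.996 to 0.9964 for the others, and 0.9937 to 0.9966 within siBCOR dex. Among cell type markers, the keratin genes KRT8 and KRT18, EPCAM and VIM were expressed in all 8 libraries. PTPRC and CD3E of immune cells and COL1A2 and DCN of fibroblasts were at or near 0, with no library above 0.173 CPM. The kidney factor PAX8 was near 0 as well, at no more than 0.256 CPM, while PAX2 stood at 1.878 to 4.319 CPM.

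BCOR itself (transcript NM_001123385, hg19 chromosome X, 39910499 to 39956719) checked the labels. It stood at 96.76, 102.1, 105.9 and 70.64 CPM in siNON dex replicates 1 to 4 and at 15.46, 14.82, 14.93 and 13.77 CPM in siBCOR dex. The groups were far apart, and siNON dex replicate 4 was the lowest control. BCOR was 6.36-fold lower (-2.67 ± 0.123, adjusted p = 1.493e-09). NR3C1, which encodes GR (chromosome 5, 142657496 to 142783254), stood at 706.0, 692.0, 679.1 and 747.6 CPM in siNON dex and at 864.9, 849.5, 844.6 and 896.0 CPM in siBCOR dex. All 4 siBCOR dex libraries lay above all controls, and the gene was 1.223-fold higher (0.29 ± 0.0533, adjusted p = 0.0007962). Reads of the endogenous receptor gene and of the added one could not be told apart.

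Depletion of BCOR in the presence of hormone was followed by many small differences and a few large ones. Of the 16432 genes tested, 3357 (20.4%) were higher and 3080 (18.7%) were lower in siBCOR dex, 39.2% in all, while 8166 (49.7%) had an unadjusted p under 0.05. The median fold of the called genes was 1.396 for those that rose and 1.302 for those that fell. Called differences of at least 2-fold were found for 124 higher genes (0.755%) and 154 lower genes (0.937%), 1.69% together. The 2 groups of 4 libraries did not overlap in 5618 genes (34.2%). Without siNON dex replicate 4, 4465 genes were higher (27.0%) and 3702 lower (22.3%), 502 of them by at least 2-fold (3.03%), and these held 3194 of the 3357 and 2986 of the 3080 first called. Leaving out each of the other control libraries lowered the number of higher genes to between 1900 and 2047. Called with all 8 libraries and without each of them in turn were 1637 higher and 2017 lower genes.

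Transcript length moved with the direction of change. The median transcript was 3867 bases long among higher genes, 2872 among lower genes and 2829 among genes not called. Among the longest 25% of transcripts 29.6% of genes were higher and 15.6% lower, and among the shortest 25% they were 12.9% and 19.3%. The median log2 deviation from the mean of all 16 libraries, taken in the longest 25% minus the shortest 25%, was 0.126, 0.019, 0.128 and 0.045 in siBCOR dex replicates 1 to 4. It was -0.106, -0.12, -0.15 and -0.035 in siNON dex, so the groups did not overlap. The part of this length difference in the results below was not tested.

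The gene with the largest rise within the naming rule was SOCS2, a feedback inhibitor of cytokine and growth hormone signalling through JAK and STAT proteins (chromosome 12, 93964757 to 93970521). It stood at 11.1, 10.98, 9.752 and 10.2 CPM in siNON dex and at 33.34, 34.38, 31.83 and 31.46 CPM in siBCOR dex. The libraries were tightly grouped on either side of a 3.116-fold difference (1.64 ± 0.0881, adjusted p = 5.905e-09). The antisense transcript SOCS2-AS1 overlaps the gene, and whether counting used the strand is not stated in the sources used here. GPR137C (chromosome 14, 53019866 to 53104431) stood at 9.134, 9.983, 7.026 and 10.99 CPM in siNON dex and 26.52, 23.22, 27.31 and 23.79 CPM in siBCOR dex, with no overlap and a log2 difference of 1.45 ± 0.167 (adjusted p = 1.541e-05). BTK, the tyrosine kinase of B-cell receptor signalling, was low throughout. Its levels were 1.298, 1.124, 1.661 and 1.401 CPM in siNON dex and 3.334, 3.494, 3.151 and 3.391 CPM in siBCOR dex, a 2.435-fold rise (adjusted p = 1.602e-06).

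FGF2, a growth factor that acts through the FGF receptors (chromosome 4, 123747863 to 123819391), rose as well. It stood at 8.552, 9.767, 8.857 and 12.67 CPM in siNON dex and at 24.81, 21.0, 23.2 and 22.59 CPM in siBCOR dex (1.21 ± 0.185, adjusted p = 0.0002122). The gene overlaps NUDT6, so some of its reads may belong to that gene. ITGB8, the integrin chain that activates latent TGF-beta, stood at 1.478, 2.247, 2.044 and 2.971 CPM in siNON dex and at 4.508, 4.376, 5.846 and 4.486 CPM in siBCOR dex (1.15 ± 0.232, adjusted p = 0.001615). Replicate 3 of siBCOR dex was the highest of these by far.

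For some other genes that rose, siNON dex replicate 4 was the control nearest to the depleted cells. CREBRF, a negative regulator of the transcription factor CREB3, stood at 5.059, 5.402, 5.195 and 10.43 CPM in siNON dex and at 14.4, 13.91, 15.66 and 17.48 CPM in siBCOR dex. Its log2 difference was 1.25 (adjusted p = 0.001364) and 1.55 without that library. PGM2L1, an enzyme that makes glucose-1,6-bisphosphate, stood at 17.1, 18.11, 13.84 and 28.98 CPM and rose to 50.77, 44.79, 56.45 and 50.34 CPM (1.38, and 1.63 without that library). SESN3, a sestrin that restrains mTORC1, showed the same order, with controls at 30.49, 30.99, 24.06 and 51.97 CPM and depleted cells at 62.68 to 87.09 CPM (1.12, and 1.39 without that library). The other named genes that rose were BBS12, a chaperonin-like protein of BBSome assembly, at 1.12, the kinase gene NEK10 at 1.13, and the readthrough gene STON1-GTF2A1L at 1.21, which shares reads with STON1. LOC101928433, at 1.12, overlaps ATXN1 and may share its reads.

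The largest falls exceeded the largest rises. PDGFA, a ligand of the PDGF receptors (chromosome 7, 536897 to 559481), stood at 46.16, 44.08, 45.48 and 38.57 CPM in siNON dex and at 9.395, 10.48, 10.87 and 9.442 CPM in siBCOR dex. No library of either group came near the other group, and the gene was 4.335-fold lower (-2.12 ± 0.102, adjusted p = 1.493e-09). CLSTN2, a calsyntenin of synaptic membranes (chromosome 3, 139654027 to 140286919), stood at 8.417, 8.687, 9.241 and 8.745 CPM in controls and at 2.084, 2.153, 2.192 and 1.982 CPM after depletion (-2.06 ± 0.114, adjusted p = 6.635e-09). CHCHD10, a protein of the mitochondrial intermembrane space (chromosome 22, 24108021 to 24110159), stood at 62.91, 68.46, 60.34 and 54.38 CPM and fell to 15.38, 17.01, 16.53 and 12.94 CPM (-1.99 ± 0.136, adjusted p = 6.872e-08). In both genes the depleted libraries held about the same level in every replicate. PLPPR2, of the phospholipid phosphatase-related family, stood at 20.69, 20.66, 22.4 and 15.98 CPM in controls and at 5.455, 5.329, 5.754 and 4.173 CPM after depletion (-1.94 ± 0.155, adjusted p = 3.687e-07).

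The next falls were in secreted factors, receptors and enzymes. INHBE, an activin subunit, stood at 9.94 to 15.63 CPM in siNON dex and at 3.788 to 4.518 CPM in siBCOR dex (-1.58 ± 0.198, adjusted p = 3.505e-05). B4GALNT1, the enzyme that makes the gangliosides GM2 and GD2, fell by 1.53 on the log2 scale and overlaps SLC26A10. GPER1, a G-protein-coupled oestrogen receptor, fell by 1.52 and lies inside C7orf50. UNC5A, a netrin receptor (chromosome 5, 176237560 to 176307899), stood at 3.313, 4.279, 3.705 and 3.308 CPM in controls and at 1.137, 1.8, 1.324 and 0.9912 CPM after depletion (-1.45 ± 0.177, adjusted p = 2.336e-05). PGC, the pepsinogen progastricsin (chromosome 6, 41704449 to 41715139), stood at 5.328, 5.661, 4.599 and 4.429 CPM in controls and at 2.159, 1.412, 1.964 and 1.878 CPM after depletion (-1.44 ± 0.142, adjusted p = 2.847e-06). The growth factor gene IGF2 and the INS-IGF2 readthrough share reads and fell by 1.42 and 1.45. JDP2, a repressor of AP-1, fell by 1.38. BCOR, NR3C1 and the 24 genes with the largest changes were called under all 25 alternative analyses.

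**Figure D1:**
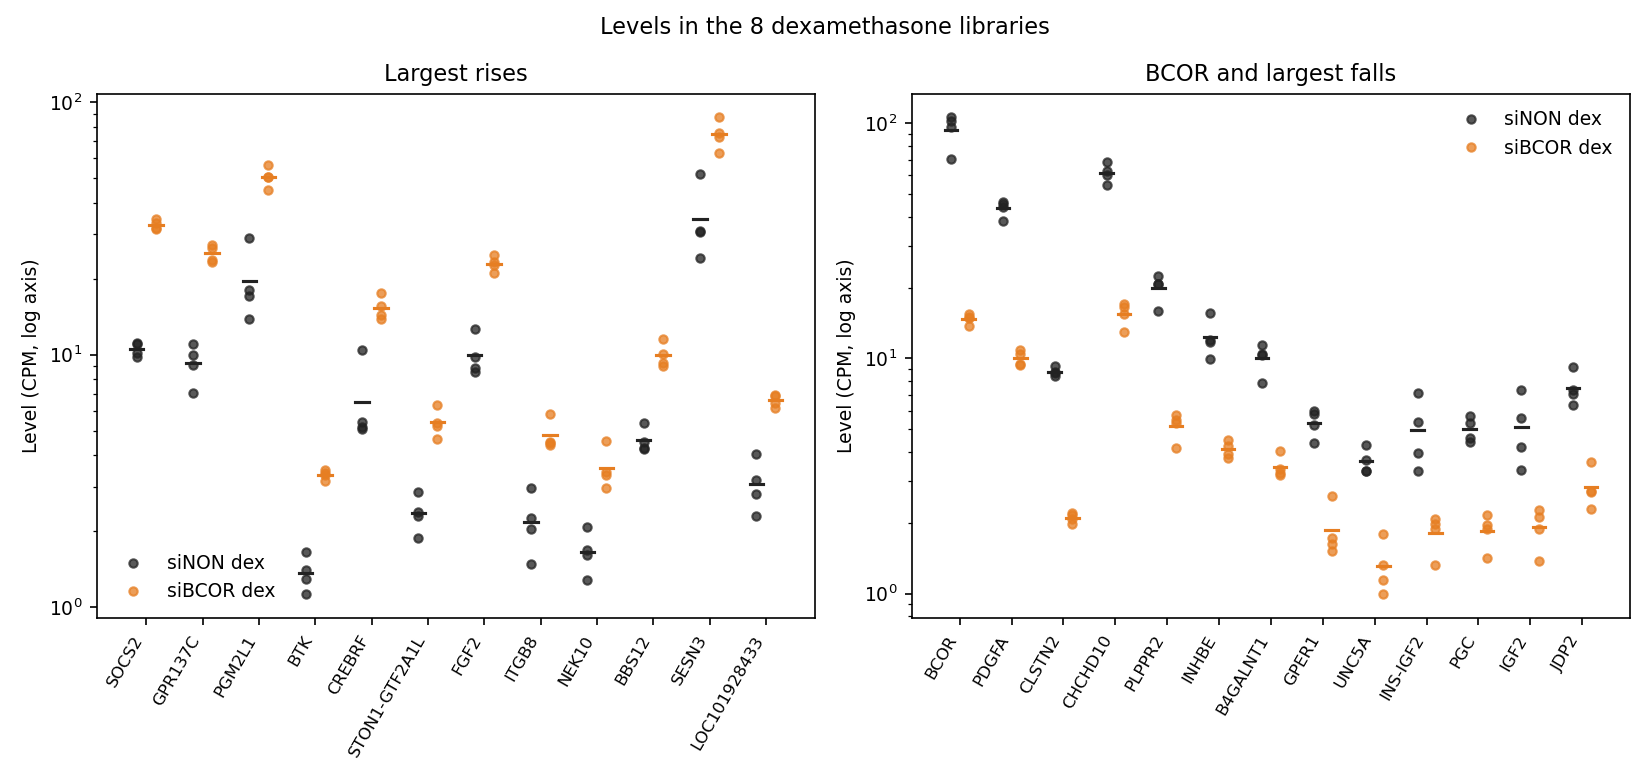
Levels in CPM on a log axis of the 12 genes with the largest rise (left) and of BCOR and the 12 with the largest fall (right), one point per library, with a bar at the mean of 4 libraries. The 2 groups do not overlap for any gene shown, which the rule for naming the 24 genes required, and the single control point near the depleted group for CREBRF, at 10.43 CPM, is siNON dex replicate 4.

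Gene lists of pathways, complexes and cell types were read against the background of 20.4% higher and 18.7% lower over all genes, with a median log2 difference of 0.02. Members other than the 4 per list with the smallest adjusted p were named after their values were seen.

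Of the 11 subunits of PRC1.1, 2 were higher, 2 lower and 7 not called, and without siNON dex replicate 4 there were 4 higher and 4 lower. BCOR and RING1, a ubiquitin ligase subunit, were the lower ones. RING1 stood at 72.22, 72.13, 69.71 and 66.54 CPM in siNON dex and at 47.17, 48.35, 49.23 and 43.87 CPM in siBCOR dex, a 1.487-fold fall without overlap (adjusted p = 2.846e-05). RNF2, the other ubiquitin ligase, was higher at 0.34 (adjusted p = 0.03045), and SKP1, which joins KDM2B to the complex, at 0.18 (adjusted p = 0.04007). RNF2 was called under 19 and SKP1 under 13 of the 25 alternatives. The paralogue BCORL1 was at -0.36 (adjusted p = 0.07342), and PCGF1, the Polycomb ring finger protein that pairs with BCOR, was at 0.03 (adjusted p = 0.7655). The histone demethylase KDM2B, which binds unmethylated CpG DNA, was at -0.12 (adjusted p = 0.228). Of 18 other PRC1 subunits 4 were higher and 8 lower. Those that fell included PHC2 (-0.75), CBX2 (-0.34) and PHC1 (-0.27), structural and chromodomain subunits of canonical PRC1. PCGF5, of another PRC1 variant, fell by 1.15. BMI1 and the chromodomain subunit CBX6 rose by 0.50 and 0.26. Of 12 PRC2 genes 2 were higher and 2 lower, with RBBP7 at 0.34 and the methyltransferase EZH1 at 0.31, and PHF1 and PHF19 at -0.30 and -0.26. Of 18 genes for BCL6 and its corepressors 1 was higher (CTBP2, 0.32) and 5 were lower, among them the deacetylases HDAC1 (-0.44) and HDAC3 (-0.20) and the NCoR subunit GPS2 (-0.48). Without siNON dex replicate 4 the PRC2 list gave 5 higher and 2 lower, and the list of BCL6 and its corepressors 4 and 9.

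Developmental genes of the kind known as Polycomb targets did not move one way, and Polycomb marks at them were not measured. Of 36 HOX genes, which pattern the body axis, 12 were higher (33.3%) and 1 was lower, and under upper-quartile scaling 8 and 1. HOXA13 stood at 22.25, 22.78, 21.63 and 22.31 CPM in siNON dex and at 36.71, 33.35, 32.42 and 30.57 CPM in siBCOR dex (0.58 ± 0.0784, adjusted p = 5.925e-05). HOXD1, HOXB6 and HOXA11 were at 0.76, 0.54 and 0.36, and HOXB13 was the one that fell (-0.31). The median over the list was 0.15 in dexamethasone and 0.16 in vehicle. Of 94 other developmental factors of the Polycomb type 10 were higher and 13 lower, and 71 were not called. Without siNON dex replicate 4 the counts were 9 and 22, and under upper-quartile scaling 6 were higher. SIX2, FOXC1 and SALL3 were among those that fell (-0.66, -0.66 and -0.77).

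The genes listed as glucocorticoid-induced were split. Whether each responds to the hormone in these cells is not described here. Of the 44 tested, 12 were higher, 11 lower and 21 not called, with a median of -0.06. CDKN1C, an inhibitor of cyclin-dependent kinases, stood at 84.09, 73.04, 74.22 and 73.72 CPM in siNON dex and at 32.88, 30.46, 35.67 and 26.97 CPM in siBCOR dex, a 2.42-fold fall with no overlap (adjusted p = 9.616e-07). S100P, a calcium-binding protein (chromosome 4, 6695566 to 6698897), stood at 116.5, 104.6, 130.9 and 105.8 CPM in controls and at 66.64, 62.44, 66.72 and 60.93 CPM after depletion (-0.83 ± 0.0951, adjusted p = 1.201e-05). FKBP5, the cochaperone of GR, was 1.182-fold lower, TSC22D3 (GILZ) 1.408-fold lower and SLC6A19 2.503-fold lower. SOCS2 led those that rose, and CPS1, the first enzyme of the urea cycle, stood at 4.612 to 5.621 CPM in controls and 9.054 to 10.62 CPM after depletion (0.90). PDK4, a brake on glucose oxidation, was 1.51-fold higher. KLF9 rose by 0.74 and BIRC3 by 0.87. In vehicle 9 genes of the list were higher and 3 lower. CPS1 (0.99), KLF9 (0.72) and TSC22D3 (-0.89) were called there in the same direction. FKBP5, SLC6A19, PDK4 and BIRC3 were not called in vehicle. For FKBP5, PDK4 and BIRC3 edgeR's test of the difference between the 2 depletion effects did not pass the threshold (adjusted p = 0.3155, 0.1957 and 0.2171). For SLC6A19 the vehicle estimate was exactly 0.0, as for a gene without reads, so a fall there could hardly be measured.

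Among GR and its coregulators 7 of 26 were higher and 11 lower. The 3 steroid receptor coactivators of the p160 family all rose, NCOA1 by 0.43, NCOA2 by 0.61 and NCOA3 by 0.52. CARM1, the arginine methyltransferase that p160 coactivators recruit, fell from 139.5 to 167.7 CPM in controls to 91.92 to 107.5 CPM (-0.67, adjusted p = 2.088e-05). BAG1, a cochaperone, fell by 0.61. The acetyltransferase CREBBP was at -0.53. The median of the list was 0.02 and turned to -0.04 under upper-quartile scaling.

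Among growth factors and their receptors most called genes fell. Of 53 tested, 8 were higher and 23 lower (43.4% against 18.7%), and the median was -0.18. Among receptors, FGFR3 stood at 23.24, 24.72, 24.02 and 21.98 CPM in siNON dex and at 9.017, 9.706, 9.864 and 7.512 CPM in siBCOR dex (-1.38 ± 0.111, adjusted p = 3.691e-07). All 4 FGF receptors were lower, FGFR1 by 0.66, FGFR2 by 0.30 and FGFR4 by 0.45 on the log2 scale. The ligand FGF2 and the ligand FGF5 rose (1.21 and 0.83). Of the PDGF ligands PDGFA fell and PDGFD rose (0.45, adjusted p = 0.03886), and the receptor PDGFRA rose from 5.067 to 5.821 CPM to 8.576 to 10.96 CPM (0.75). KIT and its ligand KITLG both rose (0.79 and 0.71). Of 51 genes of growth signalling and cell cycle brakes 13 were higher and 17 lower. ELK1, a transcription factor downstream of ERK, fell from 217.5 to 273.6 CPM to 143.4 to 166.6 CPM (-0.67), and the adaptor SHC1 and the kinase AKT1 fell by 0.43 and 0.46. SOS1 and NRAS rose by 0.74 and 0.73.

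Genes of the cell surface and its surroundings fell in most cases that were called. Of 51 matrix proteins and proteases 3 were higher and 23 lower (45.1%), with a median of -0.30, and 31 were lower without siNON dex replicate 4. FBN1, of elastic microfibrils, fell from 19.28 to 25.92 CPM to 13.67 to 16.44 CPM (-0.65), the laminin chain LAMA1 by 0.71 and the membrane protease MMP17 by 1.23. ADAMTS1, a secreted protease, was one of the 3 that rose, from 64.58 to 72.61 CPM to 97.4 to 109.1 CPM (0.58). Of 57 axon guidance genes 4 were higher and 19 lower (33.3%). The semaphorin SEMA3F and the semaphorin receptor subunit PLXNA4 fell by 1.31 and 1.30, and the Slit receptor ROBO2 rose by 0.63. Of 64 adhesion and migration genes 9 were higher and 20 lower. E-cadherin, CDH1, stood at 35.37, 30.81, 33.13 and 23.94 CPM in siNON dex and at 16.18, 16.76, 13.88 and 12.83 CPM in siBCOR dex (-1.04 ± 0.121, adjusted p = 1.415e-05). CTNND1, the catenin that stabilises cadherins, fell by 0.64, CDH4 by 1.13 and NCAM1 by 0.66.

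Signalling pathways of development gave the following counts. In the Notch pathway 2 of 25 genes were higher and 9 lower, and the ligands JAG1 and JAG2 fell by 0.79 and 1.01. Of the HES and HEY genes of the list, HEY1 rose by 0.67, whereas HES2, HES4 and HEYL fell by 0.69, 0.66 and 0.36. HES1, HES6, HES7 and HEY2 were not called. In the Wnt pathway 8 of 40 were higher and 11 lower. The ligand WNT7B and the secreted antagonists SFRP5 and SFRP1 fell by 1.08, 1.08 and 0.61. Among those that rose were the ligands WNT5A (0.31) and WNT5B (0.34) and the receptors FZD3 (0.66), LRP6 (0.59) and LGR5 (0.53). In the TGF-beta and BMP pathway 12 of 46 were higher and 6 lower, and 10 were lower both under upper-quartile scaling, where 10 were higher, and without siNON dex replicate 4, where 14 were. ID2, a BMP target that blocks basic helix-loop-helix factors, stood at 49.03, 52.94, 50.21 and 54.71 CPM in siNON dex and at 105.7, 111.8, 98.87 and 102.3 CPM in siBCOR dex, a 2.025-fold rise (adjusted p = 1.005e-07). The BMP decoy receptor BAMBI rose by 0.46, and INHBE and BMP8B fell.

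**Figure D2:**
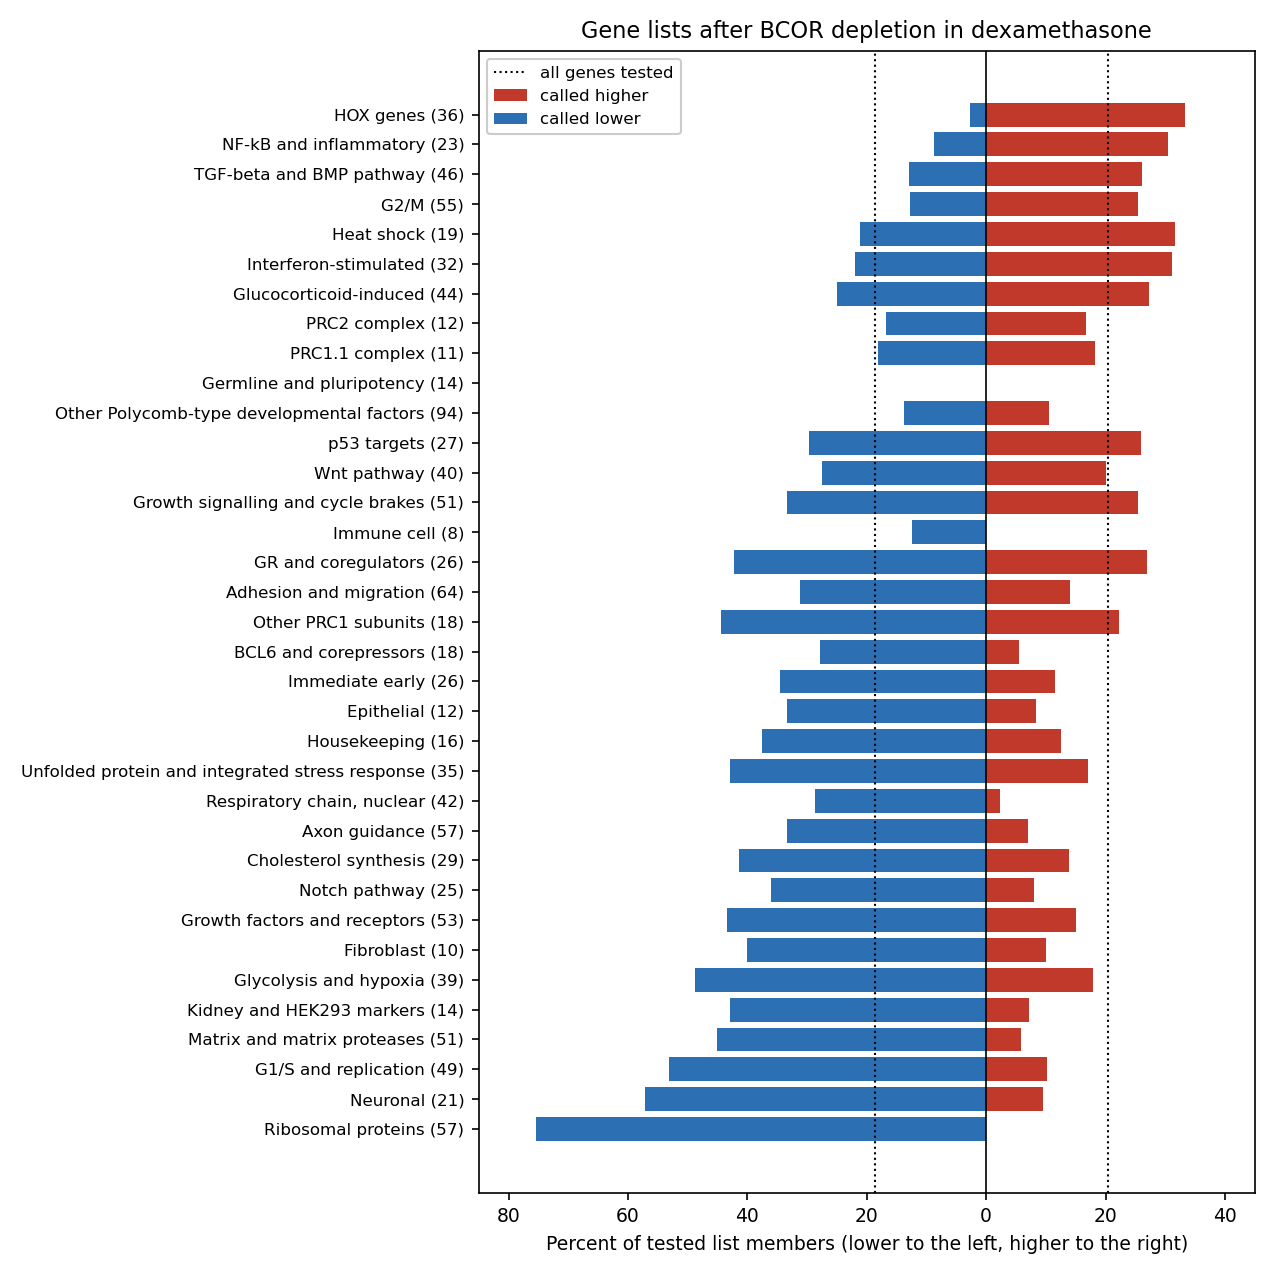
For each gene list, with its number of tested genes in brackets, the percent of members called higher (right) and lower (left) in siBCOR dex, with dotted lines at the 20.4% and 18.7% of all genes tested. Ribosomal protein genes have the longest bar of lower members, 75.4%, and HOX genes the largest excess of higher over lower members, 33.3% against 2.78%.

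Ribosomal protein genes were the list with the largest share of called members. Of 57, none was higher and 43 were lower (75.4%), with a median of -0.28, and 1 was higher and 37 lower without siNON dex replicate 4. Their summed level was 66980, 67700, 69550 and 74790 CPM in siNON dex and 52750, 59660, 52800 and 60490 CPM in siBCOR dex, so the groups did not overlap. RPL37A stood at 594.2 to 661.8 CPM in controls and 327.2 to 412.1 CPM after depletion (-0.74 ± 0.0836, adjusted p = 1.083e-05), and RPLP0, RPS12 and RPL18 fell by 0.52, 0.43 and 0.66. These transcripts are short, and the length difference given above moved with the groups in the same direction. Among all tested genes with the shortest transcripts, up to 1925 bases, 12.9% were higher and 19.3% lower. Their median log2 difference was -0.031, beside 75.4% lower and -0.28 in the ribosomal list. The part of transcript length in the ribosomal protein result was not tested. Among 42 nuclear genes of the respiratory chain 1 was higher and 12 lower, with COX7A2 and COX6A1 at -0.34 and -0.32, under upper-quartile scaling 0 and 18, and without siNON dex replicate 4, 4 and 13. Of 39 genes of glycolysis and hypoxia 7 were higher and 19 lower. GAPDH stood at 4933, 5043, 5008 and 5112 CPM in siNON dex and at 3443, 3736, 3310 and 3688 CPM in siBCOR dex (-0.50 ± 0.0655, adjusted p = 4.338e-05). The glucose transporter gene SLC2A3 and the pyruvate kinase gene PKM fell by 0.61 and 0.44, and ARRDC4, an arrestin that limits glucose uptake, rose by 1.05.

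Of 49 genes of G1/S and replication 5 were higher and 26 lower (53.1%), with a median of -0.19, and without siNON dex replicate 4, 9 were higher and 27 lower. The thymidine kinase gene TK1 stood at 173.9, 189.6, 192.1 and 184.5 CPM in controls and at 91.38, 93.81, 104.8 and 111.4 CPM after depletion (-0.88 ± 0.0786, adjusted p = 9.616e-07). RRM2, of ribonucleotide reductase, fell by 0.62, the helicase subunit MCM5 by 0.50 and the uracil glycosylase UNG by 0.43. Of 55 genes of G2/M 14 were higher (25.5%) and 7 lower (12.7%), near the shares of all genes, with a median of 0.16, and without siNON dex replicate 4, 25 were higher and 8 lower. Their summed level overlapped between the groups, with siNON dex replicate 4 at 9208 CPM inside the 8827 to 9510 CPM of siBCOR dex. The kinesin KIF23 stood at 120.1, 123.0, 110.8 and 159.2 CPM in controls and at 186.1 to 208.0 CPM after depletion (0.64), and the kinase WEE1 rose by 0.44. CDC20 and UBE2S, of the anaphase-promoting complex, fell by 0.47 and 0.42. The share of cells in each phase was not measured, and fewer cells of a phase cannot be told apart from less RNA per cell.

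Of 35 genes of the unfolded protein and integrated stress responses 6 were higher and 15 lower, with the master regulator ATF4 at 523.4 to 692.2 CPM in controls and 359.5 to 392.8 CPM after depletion (-0.65). Of 29 cholesterol genes 4 were higher and 12 lower, and without siNON dex replicate 4, 7 and 12. DHCR7, the last enzyme of cholesterol synthesis, stood at 142.0, 152.0, 151.3 and 131.3 CPM in siNON dex and at 82.25, 79.8, 85.4 and 81.43 CPM in siBCOR dex (-0.81 ± 0.0684, adjusted p = 6.051e-07). NSDHL, another enzyme of the pathway, fell by 0.51. Heat shock genes gave 6 higher and 4 lower of 19, and p53 targets 7 and 8 of 27, a list whose median turned from 0.05 to -0.01 under upper-quartile scaling. Immediate early genes gave 3 higher and 9 lower of 26, with EGR3, NR4A1 and KLF4 among the latter. NR4A2 was among those that rose (0.39). Interferon-stimulated genes gave 10 higher and 7 lower of 32. Of 23 NF-kB and inflammatory genes 7 were higher and 2 lower, and 6 and 4 without siNON dex replicate 4, with the feedback inhibitor TNFAIP3 at 0.41 and TNIP1 at -0.69. None of 14 germline and pluripotency genes was called by edgeR with all libraries, and 2 were higher without siNON dex replicate 4.

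Several cell type markers fell. Of 21 neuronal genes 2 were higher and 12 lower, and all 28 genes of the list in the table summed to 831.5 to 856.6 CPM in siNON dex and 708.9 to 726.4 CPM in siBCOR dex. STMN3 and SYP fell by 1.11 and 0.86, and SNAP25 rose by 0.67. Of 12 epithelial genes 1 was higher and 4 lower, with sums over all 15 listed of 1255 to 1319 and 1030 to 1117 CPM, and KRT8 at 527.5 to 607.9 CPM in controls and 398.2 to 448.7 CPM after depletion. Fibroblast genes gave 1 and 4 of 10 tested, with sums over all 16 of 160.2 to 209.9 and 130.7 to 168.8 CPM. Immune cell genes gave 0 and 1 of 8 tested, with sums over all 17 of 20.01 to 23.15 and 16.08 to 17.72 CPM. Kidney and HEK293 markers gave 1 and 6 of 14 tested, with sums over all 15 of 1593 to 1709 and 1333 to 1398 CPM. Except in the fibroblast list, these marker sums did not overlap between the groups. Their part in the results on adhesion, matrix and axon guidance genes was not tested. Of 16 housekeeping genes 2 were higher and 6 lower. Their sum was 17220 to 17710 CPM in siNON dex and 14100 to 14820 CPM in siBCOR dex, also without overlap. Such sums weigh the most abundant members most. The median log2 differences were -0.27 for neuronal, -0.09 for epithelial, -0.29 for fibroblast and -0.06 for immune cell genes. They were -0.16 for kidney and HEK293 markers and -0.08 for housekeeping genes.

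**Figure D3:**
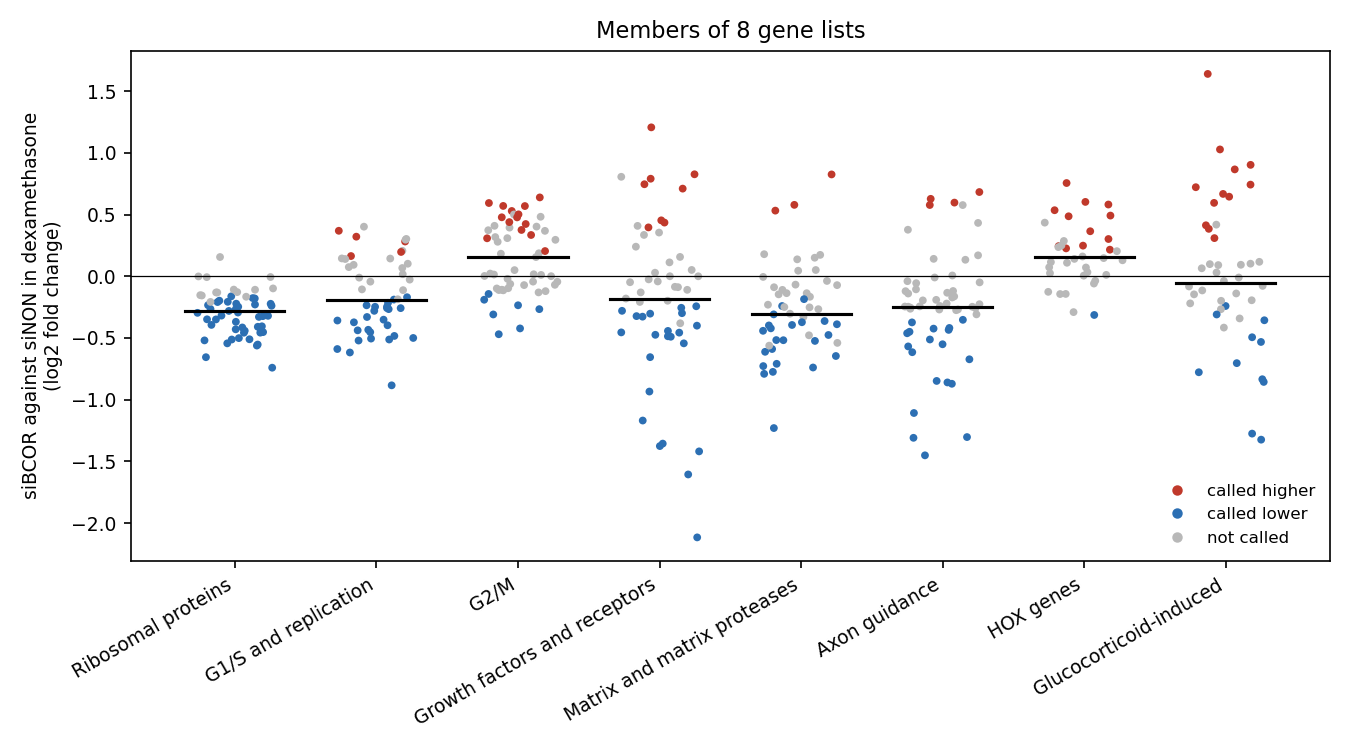
Log2 fold change in dexamethasone of each tested member of 8 gene lists, coloured by call, with a bar at the list median. Ribosomal protein members lie in a narrow band around a median of -0.28, whereas growth factor members spread from -2.12 for PDGFA to 1.21 for FGF2.

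The same depletion in vehicle, was measured in 8 other libraries, so the 2 readings share no control. With vehicle 1450 genes (8.82%) were higher and 1345 (8.19%) lower after BCOR depletion, and 1048 and 1533 under the relative log expression scaling. Of the genes higher in dexamethasone, 706 were also higher in vehicle (21% of the former and 48.7% of the latter), and of the lower genes 1056 were also lower (34.3% and 78.5%). Only 3 and 8 were called the other way. Of the higher genes 85.2% had the same sign in vehicle, and of the lower genes 87.1%, with median log2 differences there of 0.17 and -0.20. Of the 278 genes with a called difference of at least 2-fold in dexamethasone, 257 had the same sign in vehicle and 140 were called there in the same direction. The 2 sets of log2 differences had a Pearson r of 0.555 across 16432 genes, which are no independent replicates of each other, and 0.489 without siNON dex replicate 4. In vehicle too, replicates stood apart from their groups, namely replicate 3 of siNON vehicle and replicate 2 of siBCOR vehicle, with median correlations of 0.9797 and 0.9786.

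Many of the largest changes had nearly the same size without hormone. SOCS2 was 3.116-fold higher in dexamethasone and 2.734-fold in vehicle, CHCHD10 3.97-fold and 3.786-fold lower, CLSTN2 4.157-fold and 3.348-fold lower, and PLPPR2 3.838-fold and 3.172-fold lower. FGFR3 was at -1.38 and -1.26, UNC5A at -1.45 and -1.25, and RING1 at -0.57 and -0.53. Other genes were called in dexamethasone but not in vehicle. FGF2 was at 1.21 and 0.40, ITGB8 at 1.15 and 0.22, CREBRF at 1.25 and 0.48, and CDKN1C at -1.27 and -0.56 (adjusted p = 0.05072 in vehicle). For these 4 the difference between the 2 effects did not pass the threshold (adjusted p = 0.2066, 0.218, 0.2546 and 0.2006). PGC, at -1.44 and -0.25, had 0.1692 CPM or less in every vehicle library, so a fall there could hardly be measured (adjusted p of the difference = 0.3075).

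**Figure D4:**
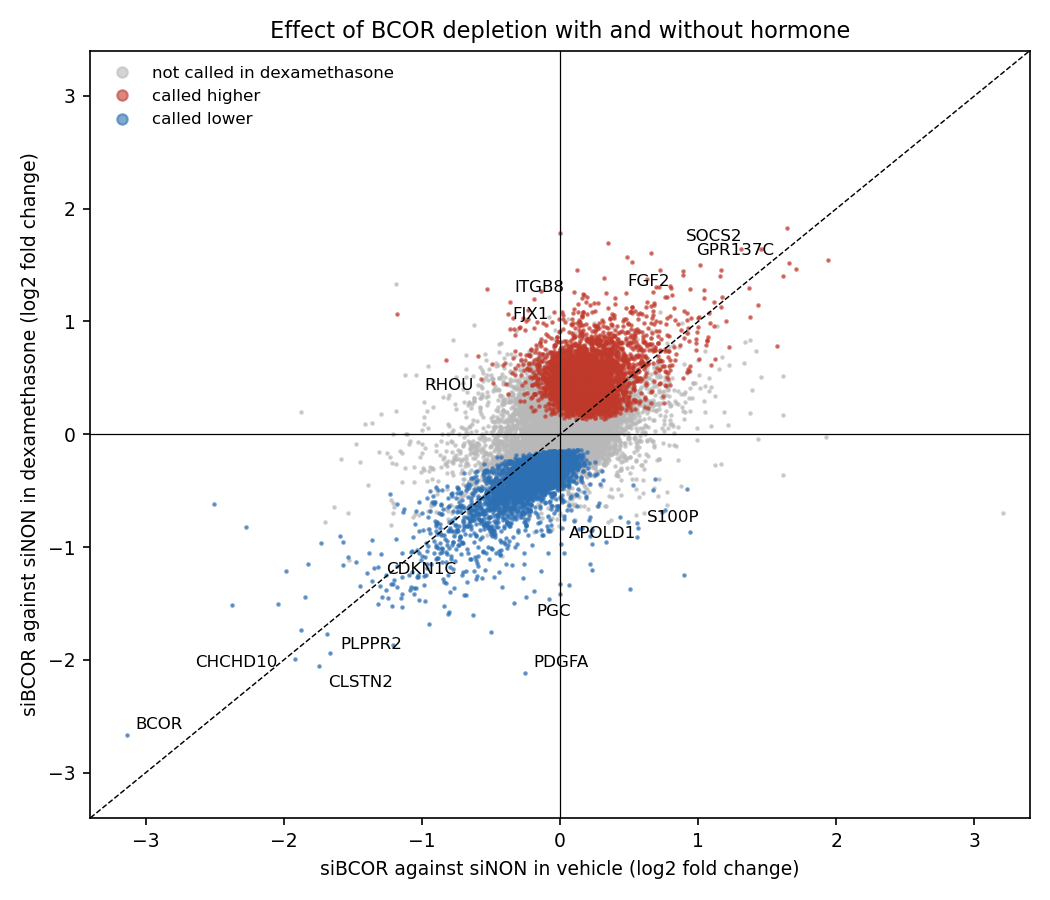
Log2 fold change of siBCOR over siNON in vehicle (horizontal) and in dexamethasone (vertical) for the genes tested, coloured by the call in dexamethasone, with a dashed line at equal effects and 1 gene outside the axes. CHCHD10, CLSTN2 and SOCS2 lie near the line, and PDGFA lies well below it at -0.25 and -2.12.

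The difference between the effects of depletion with and without hormone passed the threshold for 17 genes (0.103%), 3 above (0.0183%) and 14 below 0 (0.0852%), while 3129 (19.0%) had an unadjusted p under 0.05. With the replicate number as a block the counts were 0 and 3. Without siNON dex replicate 4 they were 1354 (8.17%) and 1075 (6.49%), 14.7% together. The 13 of the 17 with a mean of at least 50 counts are described here. PDGFA stood at 3.265, 3.289, 2.496 and 2.709 CPM in siNON vehicle and at 2.604, 2.893, 1.879 and 2.459 CPM in siBCOR vehicle, where the groups overlapped, and its depletion effect was -0.25 there against -2.12 with hormone (adjusted p of the difference = 7.265e-05). APOLD1, known from endothelial cells, stood at 366.9, 390.7, 336.2 and 378.2 CPM in siNON dex and at 202.5, 168.0, 192.3 and 185.1 CPM in siBCOR dex (-0.98 ± 0.111), while in vehicle the groups overlapped between 8.939 and 15.09 CPM. FJX1 went from 12.56 to 17.46 CPM in siNON dex to 25.2 to 29.26 CPM in siBCOR dex (0.87 ± 0.095) and was not called in vehicle.

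Some of the 13 had depletion effects of opposite sign in the 2 treatments. ACSL1, a fatty acyl-CoA ligase, was at -0.36 in dexamethasone and 0.27 in vehicle, the sorting nexin SNX33 at -0.33 and 0.30, and the GTPase RHOU at 0.36 and -0.38, each called in both. S100P and NSDHL were at -0.83 and -0.51 in dexamethasone, and at 0.57 and 0.18, not called, in vehicle. GLUL and INSIG1 were not called in dexamethasone (-0.11 and -0.05) and were higher in vehicle (0.35 and 0.34). PDGFA and ACSL1 were called under every one of the 23 alternatives for this difference, and NSDHL under 21. The other 10 were called under 4 to 11.

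BCOR binding after 1 h of treatment was deposited as 3 peak lists, with 267 peaks enriched in vehicle, 3055 enriched in dexamethasone (dex-enriched) and 8587 shared. A peak lay within 1 kb of the transcription start site of 20.6% of the 3357 higher genes, 23.6% of the 3080 lower genes and 19.1% of those not called, against 20.3% of all genes tested. Among genes changed at least 2-fold, 16 of 124 higher (12.9%) and 36 of 154 lower (23.4%) had such a peak. Dex-enriched peaks were there for 1.67% of higher, 1.3% of lower and 0.95% of other genes. These shares vary with expression. Among the 25% of genes with the lowest level a peak was present at 14.2% of higher, 19.0% of lower and 11.8% of other genes, and among the highest 25% at 22.7%, 25.8% and 23.8%. Among the 24 genes with the largest changes, SOCS2, GPR137C, STON1-GTF2A1L, ITGB8, PLPPR2, B4GALNT1 and UNC5A had a shared peak within 1 kb, and PGC had a dex-enriched one, 0.234 kb upstream of the start site. Among the 13 genes of the difference test, S100P had a dex-enriched peak, 0.144 kb upstream, and GLUL a shared one. Of the list members named above, PHF19 and NCOA3 had a dex-enriched peak within 1 kb, GPS2 and SEMA3F a vehicle-enriched one, and several more a shared one, among them HDAC1, ID2, JAG1 and DHCR7. For PDGFA the nearest peak, a dex-enriched one, lay 186 kb upstream, and for CHCHD10 it lay 7.36 kb upstream.

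The promoters of PGC and S100P, with a dex-enriched peak, and of UNC5A and ITGB8, with a shared one, are shown as windows of low and high CpG content, since PRC1.1 is known for CpG-rich promoters. They were chosen after their values were seen. The sequences are from RefSeq (GRCh38.p14), 250 bases before to 50 after the start, 5′ to 3′ on the gene's strand, with each CG in capitals. PGC is at chr6:41747348-41747647 on the minus strand, and S100P at chr4:6693628-6693927, UNC5A at chr5:176810309-176810608 and ITGB8 at chr7:20330650-20330949 on the plus strand.
PGC: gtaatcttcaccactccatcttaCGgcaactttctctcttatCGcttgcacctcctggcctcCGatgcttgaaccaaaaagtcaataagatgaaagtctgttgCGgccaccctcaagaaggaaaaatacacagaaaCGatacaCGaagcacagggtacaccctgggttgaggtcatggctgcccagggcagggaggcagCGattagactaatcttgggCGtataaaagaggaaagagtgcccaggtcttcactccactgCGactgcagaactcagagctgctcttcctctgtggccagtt
S100P: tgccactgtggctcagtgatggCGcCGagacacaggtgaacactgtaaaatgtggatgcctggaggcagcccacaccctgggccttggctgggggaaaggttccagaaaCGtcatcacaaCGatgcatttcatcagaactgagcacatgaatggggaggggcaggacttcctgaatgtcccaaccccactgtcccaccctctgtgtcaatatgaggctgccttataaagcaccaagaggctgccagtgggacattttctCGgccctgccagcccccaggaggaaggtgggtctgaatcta
UNC5A: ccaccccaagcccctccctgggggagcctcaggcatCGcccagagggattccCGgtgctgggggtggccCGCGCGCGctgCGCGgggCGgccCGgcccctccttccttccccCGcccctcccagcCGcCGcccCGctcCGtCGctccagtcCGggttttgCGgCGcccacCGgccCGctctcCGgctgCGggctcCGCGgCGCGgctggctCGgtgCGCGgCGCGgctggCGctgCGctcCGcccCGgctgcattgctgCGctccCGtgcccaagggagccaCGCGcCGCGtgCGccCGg
ITGB8: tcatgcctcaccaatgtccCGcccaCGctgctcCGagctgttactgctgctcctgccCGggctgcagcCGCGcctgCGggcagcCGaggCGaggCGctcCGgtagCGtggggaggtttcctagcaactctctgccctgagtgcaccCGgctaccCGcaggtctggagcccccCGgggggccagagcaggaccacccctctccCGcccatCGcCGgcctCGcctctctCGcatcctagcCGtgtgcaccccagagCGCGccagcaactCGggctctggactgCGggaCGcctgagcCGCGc

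These 4 windows held 9 CG dinucleotides in PGC, 5 in S100P, 44 in UNC5A and 28 in ITGB8. Among other named genes, NCOA3 with peaks of both classes held 30, and STON1-GTF2A1L with a shared peak 13. The windows found by symbol for PHF19 (dex-enriched peak) and TNIP1 (shared peak) lay at another start site than the one matched to peaks. Whether CG content follows the class of the peak was not tested. The median over the 12305 tested genes with a RefSeq promoter was 26, and over all 27305 promoters 14. It was 25 for higher, 28 for lower and 25 for genes not called. Among genes changed at least 2-fold the median was 17 in 82 higher genes and 27 in 96 lower ones with a promoter entry. The GR recognition hexamer AGAACA, searched on both strands (TGTTCT on the other), was in none of the 4 windows. It was in 14.9% of all promoters, 9.15% of those of tested genes, 9.1% of those of higher and 8.21% of those of lower genes. A match describes these letters in this window only.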

How the data were processed

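Poly(A) RNA of 16 libraries and BCOR ChIP-seq peaks from 4 were used. The authors deposited raw read counts over exons of 65572 hg19 RefSeq transcripts, made with HOMER (analyzeRepeats.pl) without depth adjustment, per the file headers. The submitters' processing notes name HOMER 4.10.3, Trimmomatic, TopHat2, FastQC, Bowtie 0.12.9 and bedtools. In the deposited peak lists each peak has a score of 0, which was not used, and how peaks were put in their class is not given in the sources used here. Transcript lengths and positions are as deposited by the authors. Transcripts without a gene name (134, 0.0664% of counts) were left out, and the transcript with most reads over all libraries stood for each of 27896 symbols. Summed counts were 2.72 to 2.77 times the header totals, since isoforms share reads.

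Counts were tested with edgeR 4.0.16 (R 4.3.3, limma 3.58.1) in 1 model of 4 group means over the 16 libraries, with TMM scaling, filterByExpr and robust quasi-likelihood F tests, two-sided, with a false discovery rate of 0.05. The fit was tested on simulated data. The alternatives were DESeq2 1.42.0, 2 other scalings, no filter, only the groups compared, a replicate block, leaving out each library, leaving out 2 libraries together, and the longest transcript. A block on the 2 dexamethasone groups alone was added after the data were seen. Deviations of same-numbered libraries of the 2 dexamethasone groups were correlated (r 0.112 to 0.519 in 4 pairs). Only 1 of the 4 siNON dex libraries correlated best with the siBCOR dex library of its own number. Over the 4 groups 11 of 24 pairs had r over 0.1. The labels do not say what a number shares. The members and lists were chosen with earlier results of these data known.

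The naming rule took BCOR and NR3C1, the 12 called genes with the largest rise and the 12 with the largest fall whose mean was 50 counts or more and whose groups did not overlap, the 4 or fewer called genes per list with the lowest adjusted p, called PRC1.1 members, and called genes of the difference test with a mean of at least 50 counts. Peaks were matched to start sites in hg19. Promoter sequences were matched by symbol, so some windows lie at another start site of the gene than the one used for peaks. Figures were drawn with matplotlib 3.10.9. Some genes that the naming rule takes are not reported here.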

Additional observations from a re-analysis of the deposited data

Results flagged for a closer look

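For CREBRF, siNON dex replicate 4 stood far from the rest of its group at 10.43 CPM, against 5.059 to 5.402 CPM in the others. For ITGB8, siBCOR dex replicate 3 did so at 5.846 CPM, against 4.376 to 4.508 CPM. Of 76 groups of 4 values looked at, 2 had such a library by Dixon's test at the 95% level, where chance gives about 1 in 20.

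The effect of BCOR depletion differed between dexamethasone and vehicle by edgeR's test of the difference for 13 named genes, given here as the log2 effect in dexamethasone minus that in vehicle. It was below 0 for PDGFA (-1.863), S100P (-1.399), APOLD1 (-0.9802), ELK1 (-0.7175), NSDHL (-0.686), SNX33 (-0.628), ACSL1 (-0.6259), SLC39A14 (-0.4818), GLUL (-0.469), SHC1 (-0.439) and INSIG1 (-0.3907). It was above 0 for FJX1 (0.7656) and RHOU (0.7325).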

How the results depend on the processing

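All 153 named genes called in dexamethasone kept their direction under every alternative run, and 149 stayed called under all of them; COL5A1, NR4A2, RNF2 and SKP1 did not. Leaving out one library gave 1900 to 4465 higher and 2268 to 3702 lower genes in dexamethasone, 887 to 1754 higher and 916 to 2011 lower genes in vehicle, and 0 to 1354 genes above and 2 to 1075 below 0 for the difference. In dexamethasone the lowest number of higher genes came without siNON dex replicate 3, and in vehicle without siBCOR vehicle replicate 1. Other settings moved these counts. In vehicle, no filter gave 892 higher genes, a fit of only those groups 712 higher and 800 lower, and leaving out siNON dex replicate 4 and siNON vehicle replicate 3 together 2490 lower. For the difference, relative log expression scaling gave 1 above and 3 below 0, upper-quartile scaling and no filter 1 and 5 each, the replicate block 0 and 3, leaving out both libraries 1170 and 601, and DESeq2 39 and 57. The cause was not tested. With the replicate block 3300 genes were higher and 3072 lower in dexamethasone, 4175 and 4113 when only the dexamethasone groups were fitted, and 1342 and 1307 in vehicle. Peaks within 0.5 kb were at 16.8% of higher and 19.8% of lower genes, and within 5 kb at 24.6% and 31.3%. Upper-quartile scaling lowered the share of higher among called genes from 52.2% to 43.0%. Among the genes with the largest changes, the limit of 50 counts was a mean over the 8 libraries. Genes at a few CPM could hold fewer counts in single libraries, which limits their precision. The vehicle level of PGC is too low for a fold.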
